A study of Homo sapiens with 4 samples.

Results

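The S100 proteins and annexins were 34 genes of 42067 gene names measured by RNA sequencing in Huh7 cells, a human hepatocellular carcinoma line. They were all genes with a RefSeq mRNA whose symbol began with S100, or with ANXA followed by digits, and each was represented by its model with the most reads. The name rule took in 21 S100 genes, 12 annexin genes and S100PBP, which encodes a protein that binds S100P and is not itself an S100 protein. Of the 34, 28 had at least 10 reads in at least 2 libraries and were tested: 15 S100 genes, all 12 annexins and S100PBP.

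Cells were treated for 4 days with 300 µM H2O2 or mock treated, with the medium renewed daily. There were 2 libraries per treatment, and their titles carried a letter, H or Q, which the labels do not explain. All 4 libraries came from the same cell line, and nothing in the labels says that libraries of 1 treatment came from separate cultures, so the p-values measure the spread between libraries, which may be technical.

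S100 proteins are small EF-hand proteins, most of which pair into dimers. On binding calcium most of them, though not all, expose a surface that holds a target protein inside the cell. Some S100 proteins are released and bind receptors on other cells. Annexins bind acidic phospholipids of membranes when calcium rises, and take part in membrane repair, vesicle traffic and the organisation of the actin cortex. The families meet in complexes: S100A10 binds ANXA2, and S100A11 binds ANXA1. In liver tumours several members, among them S100A6, S100A11, S100P and ANXA2, have been studied as markers of the tumour cell.

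With 1 model per gene, the H2O2 libraries H and Q held 113082498 and 112972746 reads and the mock libraries H and Q held 103851326 and 108117565 reads. Levels below are CPM, counts scaled to the library's total after TMM normalisation. The labelled cell type was borne out by its summed markers: the 8 hepatocyte and Huh7 genes, led by ALB and AFP, summed to 17832 and 10470.1 CPM in H2O2 H and Q, against 13698 and 5366 CPM in mock H and Q. TTR was the lowest of the 8, at 14.8 and 20.5 CPM in H2O2 H and Q, against 17.7 and 25.9 CPM in mock H and Q. In the same order of libraries, summed levels were 136, 119, 143 and 123 CPM for 3 bile duct markers, mostly SOX9, and 15.8, 18.2, 20.5 and 26.0 CPM for 6 stromal markers, mostly COL1A1. They were 0.930, 1.04, 0.506 and 1.65 CPM for 3 squamous markers, and 2.86, 2.58, 2.35 and 3.01 CPM for 4 endothelial markers. The 6 myeloid and lymphoid markers summed to 669, 636, 469 and 474 CPM, nearly all of it LYZ and CD68, whereas PTPRC, carried by all leukocytes, was at 0.0783, 0.176, 0.0516 and 0.272 CPM.

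The first question was what 4 days of H2O2 did to the 2 families. The transcripts were mostly lower in H2O2 than in mock cells, by less than the test could separate from the spread between libraries. Both H2O2 libraries lay below both mock libraries for 11 of the 28 tested members (39.3%), against 21.3% of all 27702 genes tested. They lay above both mock libraries for 4 members (14.3%), against 18.1% of all genes, and the groups overlapped for the other 13. S100A7A, 1 of the 11, passed the read filter through its mock libraries alone, so that its lower level was built in. Without it and all genes that passed through 1 treatment alone, the count was 10 of 27 members (37.0%), against 20.6% of genes. The fitted log2 fold change was below 0 in 19 of 28 members (67.9%), against 52.9% of all genes, or in 18 of 27 without S100A7A. The median was −0.68 over the S100 genes and −0.16 over the annexins, against −0.03 over all genes.

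By edgeR's quasi-likelihood test with Benjamini-Hochberg adjustment over all genes, 0 of 27702 genes (0%) and 0 members passed 5%. At an unadjusted p under 0.05 there were 1899 genes, 6.86% of those tested, and 3 members: S100A14, S100A11 and ANXA13. DESeq2 called 138 genes, 0.498%, and 1 member, S100A14. Adjusted p-values of the members in edgeR ran between 0.721 and 0.997. Since the RNA came from whole cultures, fewer cells of a type and less RNA per cell cannot be told apart. Taken in letter H alone the S100 median was −0.71, and in letter Q alone −0.20. Without 1 library at a time it was −0.08 (H2O2 H left out), −0.96 (H2O2 Q), −0.44 (mock H) and 0.17 (mock Q), so its sign turned in 1 of 4 cases.

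**Figure D1:**
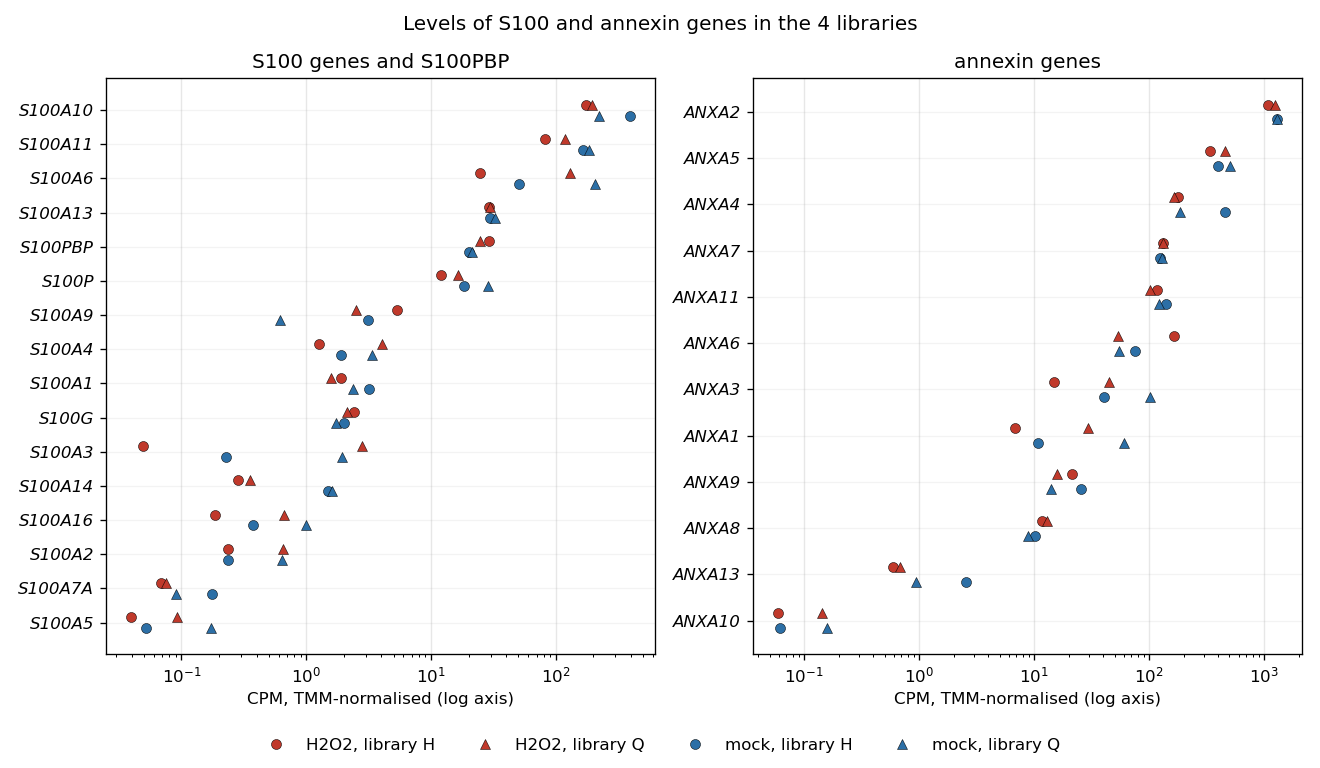
Level of each tested gene in each library, as TMM-normalised CPM on a log axis, with S100 genes and S100PBP on the left and annexins on the right (red for H2O2, blue for mock, circles for library H, triangles for library Q). S100A14 shows both red points, at 0.284 and 0.351 CPM, apart from both blue points, at 1.49 and 1.60 CPM, while for S100A6, S100A3, ANXA1 and ANXA3 the triangles lie to the right of the circles in both colours.

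Levels spanned a wide range within each family. Per kilobase of transcript, over the 4 libraries, the highest S100 gene was S100A11 at 231 CPM per kb, followed by S100A10 at 205, S100A6 at 154, S100A13 at 44.1 and S100P at 14.7 CPM per kb. ANXA2 was the highest annexin and the highest member at 851 CPM per kb, followed by ANXA5 at 240.4, ANXA4 at 88.1 and ANXA7 at 59.3 CPM per kb. These orders varied between libraries: S100A10 was above S100A11 in both H libraries, at 146 against 138 CPM per kb in H2O2 H and 327 against 276 CPM per kb in mock H. S100A6 was above S100A10 in both Q libraries, at 195 against 161 CPM per kb in H2O2 Q and 307 against 185 CPM per kb in mock Q. At the other end, S100A8 and S100A7L2 had 0 reads in every library, and S100A12, S100A7, S100B and S100Z had 7 to 12 reads in all 4 libraries together.

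Of all members S100A14 had the largest fitted difference. S100A14, which lacks a full set of calcium-binding residues and is known from epithelial tumours, stood at 0.284 and 0.351 CPM in H2O2 H and Q, against 1.49 and 1.60 CPM in mock H and Q. Both H2O2 libraries were far below both mock libraries, and replicates of a treatment lay close together. The log2 fold change was −2.28 ± 0.32 (SE; n = 2 each; edgeR adjusted p = 0.721), with ratios of −2.05 in the H libraries and −1.91 in the Q libraries. With DESeq2 the adjusted p was 0.000966, the lowest among the alternatives, whose highest was 1.0. The gene was rare, with 29 and 42 reads in H2O2 cells against 144 and 194 reads in mock cells, and over all alternatives its log2 fold change stayed between −2.43 and −1.72.

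S100A10, the light chain that binds ANXA2, was at 175 and 194 CPM in H2O2 H and Q, against 393 and 222 CPM in mock H and Q. The mock H library was high and the other 3 were close. The log2 fold change was −0.74 ± 0.32 (SE; n = 2 each; edgeR adjusted p = 0.726), and it was −0.27 without the mock H library. Its partner ANXA2, the most abundant member, averaged 1165 ± 105 CPM in H2O2 cells and 1293 ± 4.96 CPM in mock cells (SD, n = 2 each). The difference, −0.15 ± 0.24 on the log2 scale (SE), was smaller than its error although the groups did not overlap.

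The 250 bases upstream of the start of S100A14 and S100A10 are printed to set the promoter of the gene with the largest difference beside that of an abundant gene with lower levels in the same direction. They come from RefSeq on GRCh38.p14, 5′ to 3′ on the minus strand, at chr1:153616326-153616575 for S100A14 and chr1:151993860-151994109 for S100A10. Capitals mark a match, on either strand, to any of 5 motifs searched: the TATA box TATAAA, the AP-1 site TGANTCA, the GC box GGGCGG, the antioxidant response core TGACNNNGC and the hypoxia response core ACGTG.
S100A14: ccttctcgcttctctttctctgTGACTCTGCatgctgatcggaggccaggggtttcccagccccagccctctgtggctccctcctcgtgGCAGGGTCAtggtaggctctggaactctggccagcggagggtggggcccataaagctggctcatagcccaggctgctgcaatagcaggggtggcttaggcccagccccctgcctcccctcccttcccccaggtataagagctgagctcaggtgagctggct
S100A10: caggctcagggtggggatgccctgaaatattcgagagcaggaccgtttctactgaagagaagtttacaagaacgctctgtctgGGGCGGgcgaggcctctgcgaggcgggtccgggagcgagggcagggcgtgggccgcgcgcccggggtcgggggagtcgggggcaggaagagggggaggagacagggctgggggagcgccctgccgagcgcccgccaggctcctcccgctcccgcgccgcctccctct
S100A14 held 2 antioxidant response cores, a motif found in 10.9% of 35114 promoters of this length. S100A10 held 1 GC box, found in 42.6% of them. The other motifs had no match in either window; TATAAA was found in 10.7% of promoters, TGANTCA in 6.57% and ACGTG in 18.5%. Matching letters do not show that a factor binds there, and GENCODE v29 gives S100A14 further starts, of which the one used in these cells was not tested. S100A14 had 4 CG dinucleotides in this window and S100A10 had 24, against a median of 11 over all promoters.

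S100A11, which binds ANXA1 and shuttles to the nucleus, was at 82.0 and 119 CPM in H2O2 H and Q, against 164 and 183 CPM in mock H and Q. Both H2O2 libraries were below both mock libraries, and the log2 fold change was −0.78 ± 0.25 (SE; n = 2 each; edgeR adjusted p = 0.721). S100P, a ligand of the receptor AGER that also binds ezrin, was at 12.0 and 16.3 CPM in H2O2 cells, against 18.5 and 28.6 CPM in mock cells. S100P did not overlap between treatments either, with a log2 fold change of −0.73 ± 0.30 (SE; edgeR adjusted p = 0.721). It was −0.39 without the mock Q library.

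S100PBP, whose product binds S100P in the nucleus, went the other way. It averaged 26.7 ± 3.14 CPM in H2O2 cells and 20.7 ± 0.658 CPM in mock cells (SD, n = 2 each), with no overlap and a log2 fold change of 0.37 ± 0.20 (SE; edgeR adjusted p = 0.740). S100PBP lies over YARS on the opposite strand, and the use of strand in counting was not given.

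S100A1, best known as a calcium sensor of heart muscle, averaged 1.74 ± 0.226 CPM in H2O2 cells and 2.76 ± 0.579 CPM in mock cells (SD, n = 2 each). The log2 fold change was −0.67 ± 0.29 (SE; edgeR adjusted p = 0.726), or −0.44 without the mock H library. S100A13, which takes part in the release of FGF1 and overlaps S100A1 on the opposite strand, was nearly level at 29.3 ± 0.390 CPM in H2O2 cells and 31.3 ± 1.98 CPM in mock cells. The difference of S100A13 was −0.09 ± 0.18 on the log2 scale (SE).

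The inflammatory S100 genes were almost silent apart from S100A9. S100A9 and S100A8 together form calprotectin, a complex of neutrophils and monocytes that binds zinc and manganese. S100A8 had 0 reads in all 4 libraries. S100A9 was at 5.29 and 2.50 CPM in H2O2 H and Q, against 3.12 and 0.611 CPM in mock H and Q. It was higher in H2O2 than in mock within each letter, by 0.74 in H and 1.87 in Q on the log2 scale, but H2O2 Q lay below mock H and the groups overlapped. The fitted log2 fold change of 1.07 ± 0.81 (SE; edgeR adjusted p = 0.791) was 2.67 without the mock H library, 0.32 without the mock Q library and 0.43 without the H2O2 H library. PTPRC was at or under 0.272 CPM in the same libraries, and LYZ was at 596 and 537 CPM in H2O2 H and Q, against 419 and 391 CPM in mock H and Q; their part in the result was not tested.

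S100G, the vitamin D dependent calcium carrier of the intestine, averaged 2.28 ± 0.216 CPM in H2O2 cells and 1.88 ± 0.206 CPM in mock cells (SD, n = 2 each), a log2 difference of 0.28 ± 0.26 (SE) without overlap. S100G shares its locus with CTPS2 on the opposite strand. S100A7A, of the psoriasin group of skin, had 7 and 9 reads in H2O2 cells against 17 and 11 reads in mock cells. S100A7, its close relative, had 0 reads in both H2O2 libraries, against 8 and 4 reads in mock H and Q.

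For the other S100 genes the spread between libraries was as large as or larger than the difference between treatments. S100A4, which binds nonmuscle myosin and is linked to cell motility, averaged 2.65 ± 1.94 CPM in H2O2 cells and 2.62 ± 1.04 CPM in mock cells. S100A2, a gene of epithelial basal cells, averaged 0.443 ± 0.295 CPM in H2O2 cells and 0.436 ± 0.281 CPM in mock cells. S100A16 averaged 0.427 ± 0.341 CPM in H2O2 cells and 0.685 ± 0.443 CPM in mock cells, and S100A5 averaged 0.0655 ± 0.0373 CPM in H2O2 cells and 0.112 ± 0.0860 CPM in mock cells (SD, n = 2 each throughout). In each of these genes the treatments overlapped and the direction of the difference turned when 1 library was left out.

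**Figure D2:**
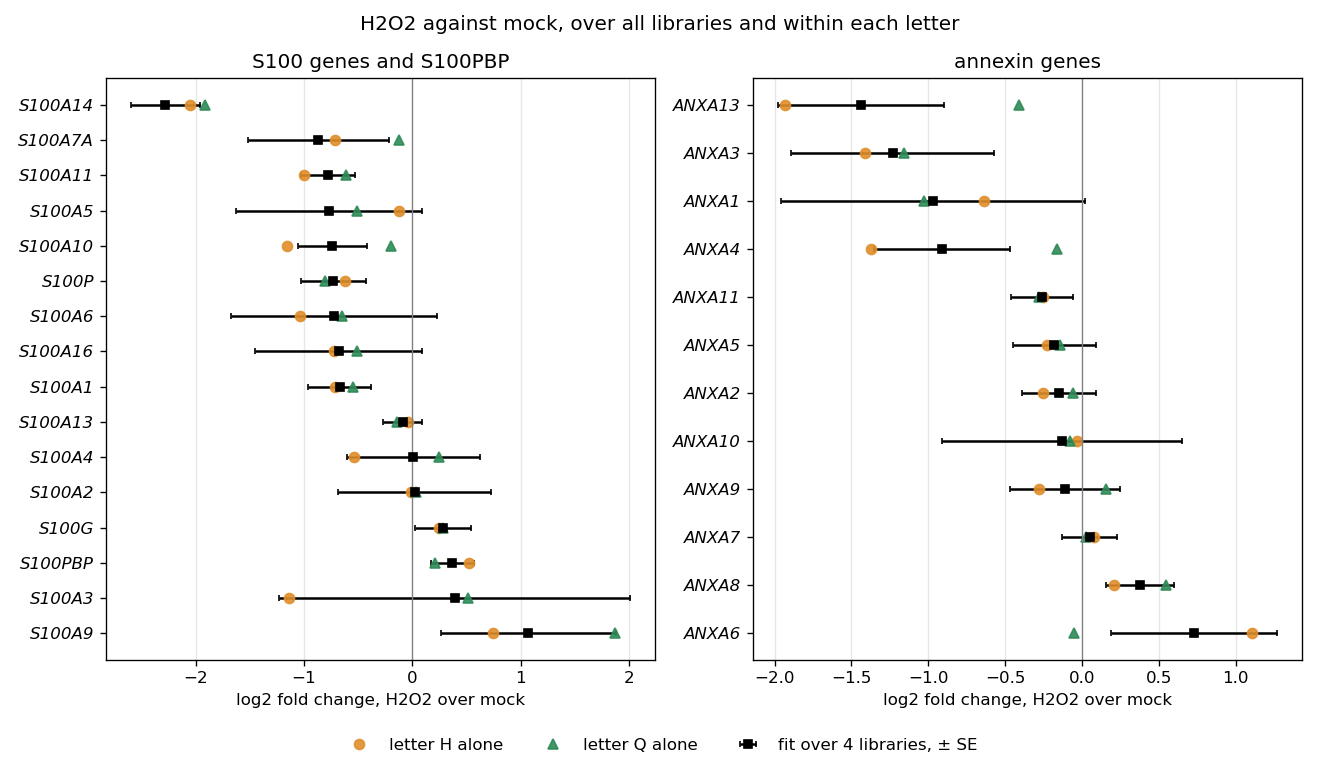
Log2 fold change of H2O2 over mock for each tested gene, from the fit over 4 libraries with its standard error (black squares) and from letter H alone (orange circles) and letter Q alone (green triangles), which use CPM plus 0.1 and so draw rare genes towards 0. Most symbols lie left of 0, S100A14 lies farthest left at −2.28, and S100A10, ANXA4 and ANXA13 have a circle far left of the triangle.

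In the annexin family 9 of 12 members had a log2 fold change below 0 and 3 above. ANXA2, ANXA5, ANXA9, ANXA10 and ANXA11 lay between −0.26 and −0.11, and ANXA1, ANXA3, ANXA4 and ANXA13 between −1.44 and −0.91. ANXA2 and ANXA11 were lower without overlap by −0.15 ± 0.24 and −0.26 ± 0.20 on the log2 scale (SE). ANXA11, which links RNA granules to lysosomes, was at 118 and 101 CPM in H2O2 H and Q, against 140.2 and 122 CPM in mock H and Q. ANXA5, the phosphatidylserine binder used to stain dying cells, averaged 398 ± 85.2 CPM in H2O2 cells and 449 ± 76.8 CPM in mock cells (SD, n = 2 each), with overlap. ANXA7, first described in chromaffin granule fusion, was level at 131 ± 0.181 CPM in H2O2 cells and 127 ± 3.19 CPM in mock cells.

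ANXA4 and ANXA13 each had a mock H library above the other 3. ANXA4, an epithelial annexin of secretory membranes, was at 177 and 166 CPM in H2O2 H and Q, against 458 and 186 CPM in mock H and Q. The other 3 libraries were near level, and the log2 fold change of −0.91 ± 0.44 (SE; edgeR adjusted p = 0.728) became −0.12 without it. ANXA13, an annexin of intestine and kidney epithelium, was at 0.597 and 0.685 CPM in H2O2 H and Q, against 2.56 and 0.941 CPM in mock H and Q. Its log2 fold change was −1.44 ± 0.54 (SE; n = 2 each; edgeR adjusted p = 0.721), and it was −0.55 without the mock H library. The reads of ANXA4 may include those of AAK1, which overlaps it on the opposite strand.

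ANXA6, an annexin with a doubled core that binds cholesterol-rich endosomes, was at 163 and 53.2 CPM in H2O2 H and Q, against 75.7 and 55.1 CPM in mock H and Q. Only the H2O2 H library was high, and the log2 fold change of 0.73 ± 0.54 (SE; edgeR adjusted p = 0.789) was −0.30 without it. ANXA8 averaged 12.4 ± 0.833 CPM in H2O2 cells and 9.51 ± 0.971 CPM in mock cells (SD, n = 2 each), a log2 difference of 0.38 ± 0.22 (SE) without overlap. ANXA8 has near-identical copies on chromosome 10, so its reads cannot be assigned to it with certainty. ANXA9 averaged 18.5 ± 3.92 CPM in H2O2 cells and 19.9 ± 8.29 CPM in mock cells, and ANXA10, a gastric annexin, was at 0.0587 and 0.142 CPM in H2O2 H and Q, against 0.0620 and 0.157 CPM in mock H and Q. Neither of these genes separated the treatments.

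Several members had a larger log2 difference between the letters than between the treatments. Library Q was compared with library H in a fit with treatment beside the letter, a comparison added after the data had been seen. By edgeR's test 1289 of 27702 genes (4.65%) passed 5%, and 574 (2.07%) were higher in Q. Of the 28 members 4 passed (14.3%), S100A6, ANXA1, ANXA3 and S100A3, and all 4 were higher in Q than in H. Both Q libraries lay above both H libraries for 10 members (35.7%), against 23.9% of all genes, and below them for 3 members, S100A9, ANXA6 and ANXA9, against 21.8% of all genes. S100A5 and ANXA10, 2 of the 10, passed the read filter through their Q libraries alone, so that their higher level in Q was built in. Without such genes the count was 8 of 26 members (30.8%), against 22.0% of genes.

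S100A6, or calcyclin, a gene of proliferating and mesenchymal cells, was at 129.7 and 204 CPM in the Q libraries of H2O2 and mock cells, against 24.5 and 50.5 CPM in their H libraries. Both Q libraries were above both H libraries, and the log2 ratio of Q over H was 2.21 ± 0.16 (SE; n = 2 each; edgeR adjusted p = 0.0117). ANXA1, a glucocorticoid-induced annexin that signals through formyl peptide receptors, was at 29.6 and 60.8 CPM in the Q libraries of H2O2 and mock cells, against 6.88 and 10.8 CPM in their H libraries. The log2 ratio of ANXA1 was 2.30 ± 0.17 (SE; edgeR adjusted p = 0.0117).

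ANXA3, studied as a marker of stem-like hepatocellular carcinoma cells, was at 45.0 and 101 CPM in the Q libraries of H2O2 and mock cells, against 15.0 and 40.2 CPM in their H libraries, a log2 ratio of 1.46 ± 0.14 (SE; edgeR adjusted p = 0.0213). S100A3, a gene of the hair cuticle, was at 2.82 and 1.95 CPM in the Q libraries of H2O2 and mock cells, against 0.0489 and 0.227 CPM in their H libraries. It had the widest ratio of the members, 4.16 ± 0.60 on the log2 scale (SE; edgeR adjusted p = 0.0290), from 337 and 236 reads in Q against 5 and 22 reads in H. S100A3 overlaps S100A4 on the same strand, and their shared reads cannot be told apart.

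Within a letter, the first 3 of these genes were lower in H2O2 than in mock cells. The letters disagreed for S100A3, at −1.14 in H and 0.51 in Q on the log2 scale. Its fitted log2 fold change was 0.39 ± 1.62 (SE, edgeR adjusted p = 0.960). On the log2 scale S100A6 differed by −1.04 in H and −0.65 in Q, ANXA1 by −0.64 in H and −1.03 in Q, and ANXA3 by −1.41 in H and −1.16 in Q. Across all 4 libraries the treatments overlapped. In the fit with treatment as sole term, the error of H2O2 over mock includes the spread between letters. The log2 fold changes there were −0.72 ± 0.95 for S100A6, −0.97 ± 0.99 for ANXA1 and −1.23 ± 0.66 for ANXA3 (SE; edgeR adjusted p between 0.740 and 0.866). Without the mock Q library the values were 0.61 for S100A6, 0.75 for ANXA1 and −0.42 for ANXA3. Leaving it out sets both H2O2 libraries against mock H alone, so letter and treatment are mixed in those values. In the fit with treatment beside the letter, H2O2 over mock was −0.85 for S100A6, −0.85 for ANXA1 and −1.29 for ANXA3. Their edgeR adjusted p-values there were 0.103, 0.109 and 0.0504.

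The 250 bases upstream of S100A6 and ANXA1 are printed as those of the 2 members with the smallest adjusted p between letters. They come from RefSeq on GRCh38.p14, at chr1:153535992-153536241 on the minus strand for S100A6 and chr9:73151615-73151864 on the plus strand for ANXA1. Capitals mark the same 5 motifs, and matches that overlap are joined.
S100A6: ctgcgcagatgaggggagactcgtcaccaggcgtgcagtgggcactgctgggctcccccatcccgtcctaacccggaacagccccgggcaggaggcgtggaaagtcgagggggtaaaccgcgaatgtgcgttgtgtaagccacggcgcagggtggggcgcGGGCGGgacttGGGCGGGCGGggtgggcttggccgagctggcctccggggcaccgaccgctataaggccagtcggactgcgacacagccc
ANXA1: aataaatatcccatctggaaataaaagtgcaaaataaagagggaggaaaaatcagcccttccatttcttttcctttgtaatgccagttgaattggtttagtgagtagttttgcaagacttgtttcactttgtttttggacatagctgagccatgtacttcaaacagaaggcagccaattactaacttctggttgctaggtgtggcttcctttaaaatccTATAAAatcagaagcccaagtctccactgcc
These windows had little in common. S100A6 held 24 CG dinucleotides and 3 GC boxes, 2 of them overlapping, whereas ANXA1 held 0 CG dinucleotides and 1 TATA box. Over the members with an entry in the promoter table, 26 of the 28 tested, the median number of CG dinucleotides in this window was 4 in 15 S100 genes and 18.5 in 10 annexins, against 11 over all promoters.

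Most S100 genes lie in a cluster on chromosome 1, where they can be followed by position. In the RefSeq order of protein-coding genes, 63 genes ran along chromosome 1 between S100A10 and S100A1, and 16 of them were members. The consecutive genes S100A6, S100A5, S100A4, S100A3 and S100A2 all had both Q libraries above both H libraries, against 23.9% of all genes, and so did S100A16 beside them. The stretch was picked after this pattern was seen, S100A5 entered through its Q libraries, and S100A3 and S100A4 share reads, so the count describes these genes alone. On its other side S100A7A overlapped between letters and S100A9 was lower in Q. The next 3 members, S100A14, S100A13 and S100A1, had both H2O2 libraries below both mock libraries and overlapped between letters, as did S100A10 and S100A11 at the far end. S100A7A did so too, though its lower level was built in by the read filter. Both H2O2 libraries lay below both mock libraries for 21.3% of all genes, and S100A13 was nearly level at −0.09 ± 0.18 (SE). A part of position in these differences was not tested. Of these Q-high genes S100A3 and S100A6 passed the test, and log2 ratios of the others were 1.62 ± 0.35 for S100A16, 1.44 ± 0.37 for S100A2, 1.49 ± 0.71 for S100A5 and 1.24 ± 0.28 for S100A4 (SE; edgeR adjusted p between 0.0565 and 0.258). Of 10 epidermal genes that lie in the cluster, LOR alone passed the read filter, with 0.255 and 0.117 CPM in H2O2 H and Q against 0.248 and 0.223 CPM in mock H and Q.

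S100A9 went the other way between letters, at a log2 ratio of −1.68 ± 0.34 (SE; edgeR adjusted p = 0.0506), and ANXA6 and ANXA9 were at −1.04 ± 0.27 and −0.66 ± 0.18. Most hepatocyte markers were lower in the Q libraries too: 7 of 8 had a log2 ratio below 0, and ALB and AFP passed the test at −1.02 ± 0.17 and −1.56 ± 0.25 (SE; edgeR adjusted p = 0.0331 and 0.0321). TTR went the other way, at 0.51 ± 0.15 (SE; edgeR adjusted p = 0.111). Of 3 bile duct markers KRT7 passed, at 1.81 ± 0.35 (SE; edgeR adjusted p = 0.0443), while KRT19 was at 1.06 ± 0.51 and SOX9, which holds most of their reads, at −0.23 ± 0.13. Of 6 myeloid and lymphoid markers 4 were above 0 and 2 below. ITGAM alone of them passed, at 1.20 ± 0.22 (SE; edgeR adjusted p = 0.0418), while LYZ, which holds most of their reads, was at −0.12 ± 0.13. All 5 tested stromal, 3 squamous and 3 endothelial markers were above 0, and 0 of them passed. The part of these differences in the members' values was not tested. With the letter as sole term 3 genes (0.0108%) and 0 members passed, with adjusted p-values of 0.154 for S100A6, 0.152 for ANXA1, 0.295 for ANXA3 and 0.144 for S100A3.

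**Figure D3:**
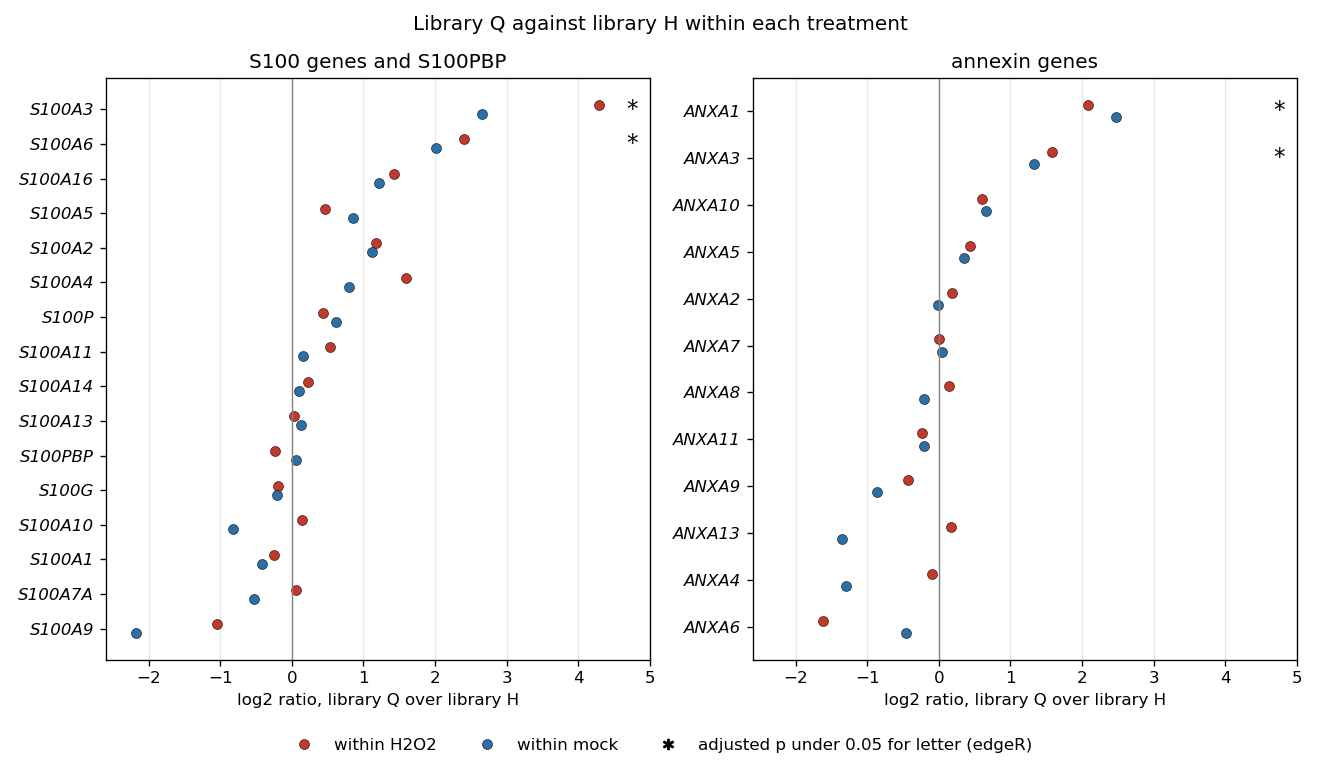
Log2 ratio of library Q over library H within H2O2 cells (red) and within mock cells (blue) for each tested gene, from CPM plus 0.1. An asterisk marks the 4 genes that passed 5% for letter in edgeR, S100A3, S100A6, ANXA1 and ANXA3, where both points lie above 1.

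Genes that work with the 2 families were described from lists chosen for their known roles, and 0 of them passed 5% between H2O2 and mock in edgeR. Of 8 receptors and binding proteins for secreted S100 proteins 3 had a log2 fold change above 0 and 5 below, with a median of −0.06. ALCAM, an adhesion molecule, had the highest fold change, at 117 and 83.7 CPM in H2O2 H and Q, against 63.9 and 49.4 CPM in mock H and Q, a log2 fold change of 0.83 ± 0.26 (SE; edgeR adjusted p = 0.721). AGER, the receptor for advanced glycation end products that binds S100P and other S100 proteins, was at −0.60 ± 0.34, and the scavenger receptor CD36 was at 0.40 ± 0.50. TLR4, a receptor of calprotectin, was rare at 0.117 and 0.0501 CPM in H2O2 H and Q, against 0.279 and 0.272 CPM in mock H and Q.

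Of 8 partners inside the cell 3 were above 0 and 5 below, with a median of −0.04. The largest values were 0.62 ± 0.28 for HLTF, a DNA translocase, 0.47 ± 0.22 for CACYBP, the calcyclin-binding protein, and −0.47 ± 0.43 for MYH9, the nonmuscle myosin heavy chain that S100A4 binds. Between letters MYH9 alone of the 8 passed, at 0.85 ± 0.14 on the log2 scale, Q over H (SE; edgeR adjusted p = 0.0341). Receptors of ANXA1 were nearly absent, with FPR2 at 0 to 2 reads per library. Of the 3 tested genes of that list 2 were above 0 and 1 below, with a median of 0.54, and PLA2G4A, the phospholipase that annexins restrain, was at 9.39 and 8.34 CPM in H2O2 H and Q, against 5.51 and 6.63 CPM in mock H and Q.

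For the plasminogen system that ANXA2 and S100A10 gather at the cell surface, 3 of the 7 genes reported here had a log2 fold change above 0 and 4 below, and no median is given because the list is not reported in full. AHNAK, a giant scaffold held at the membrane by ANXA2 and S100A10, was at 107 and 179.9 CPM in H2O2 H and Q, against 201 and 397 CPM in mock H and Q, a log2 fold change of −1.06 ± 0.43 (SE; edgeR adjusted p = 0.721). PLAUR, the urokinase receptor, was at −1.01 ± 0.53 with overlap, and PLG, plasminogen itself, at 0.94 ± 0.58 with overlap (SE). PLAU, the urokinase activator that binds PLAUR, was at 8.88 and 12.9 CPM in H2O2 H and Q, against 13.8 and 22.7 CPM in mock H and Q, without overlap. Its log2 fold change was −0.74 ± 0.34 (SE; edgeR adjusted p = 0.728), and it was named after its value was seen. Between letters 3 of the 7 passed, against 4.65% of all genes: AHNAK at 0.86 ± 0.14, PLAUR at 1.10 ± 0.21 and PLGRKT, a plasminogen receptor, at −0.87 ± 0.17 (SE; edgeR adjusted p = 0.0329, 0.0431 and 0.0473).

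Calcium-triggered membrane repair, in which annexins and S100A11 gather at a wound, had 10 of 11 genes below 0, against 52.9% of all genes, and a median of −0.40, against −0.03 over all genes, with −0.32 in letter H and −0.39 in letter Q. Both H2O2 libraries lay below both mock libraries for 3 of the 11, against 21.3% of all genes, and PDCD6, CAPNS1 and CHMP4B were at −0.01, −0.03 and −0.13. CAPN2, a calpain protease, was at 12.4 and 39.1 CPM in H2O2 H and Q, against 40.2 and 91.1 CPM in mock H and Q. Its log2 fold change was −1.35 ± 0.65, and those of the ferlins DYSF and MYOF were −0.89 ± 0.51 and −0.74 ± 1.03 (SE; edgeR adjusted p between 0.728 and 0.874). Between letters 2 of the 11 passed, against 4.65% of all genes: MYOF at 2.41 ± 0.17 and CAPN2 at 1.42 ± 0.17 on the log2 scale, Q over H (SE; edgeR adjusted p = 0.0117 and 0.0233). Of the 11 ratios 3 were below 0.

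Other EF-hand proteins showed no common direction between H2O2 and mock, with 7 of 13 above 0 and a median of 0.06. NCALD was at 0.66 ± 0.44, GCA, or grancalcin, at −0.64 ± 0.21 and SRI, or sorcin, at −0.40 ± 0.24 (SE; edgeR adjusted p between 0.721 and 0.777). Between letters most were lower in Q: 11 of the 13 log2 ratios of Q over H were below 0 and 2 above, with a median of −0.34. CALM3 alone of them passed between letters, at −0.79 ± 0.13 (SE; edgeR adjusted p = 0.0348). Of 7 fused S100 genes of skin 3 were tested. Between H2O2 and mock 1 was above 0, with a median of −0.36, and FLG2 was at −0.36 ± 0.33 and TCHH at 0.02 ± 0.41.

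**Figure D4:**
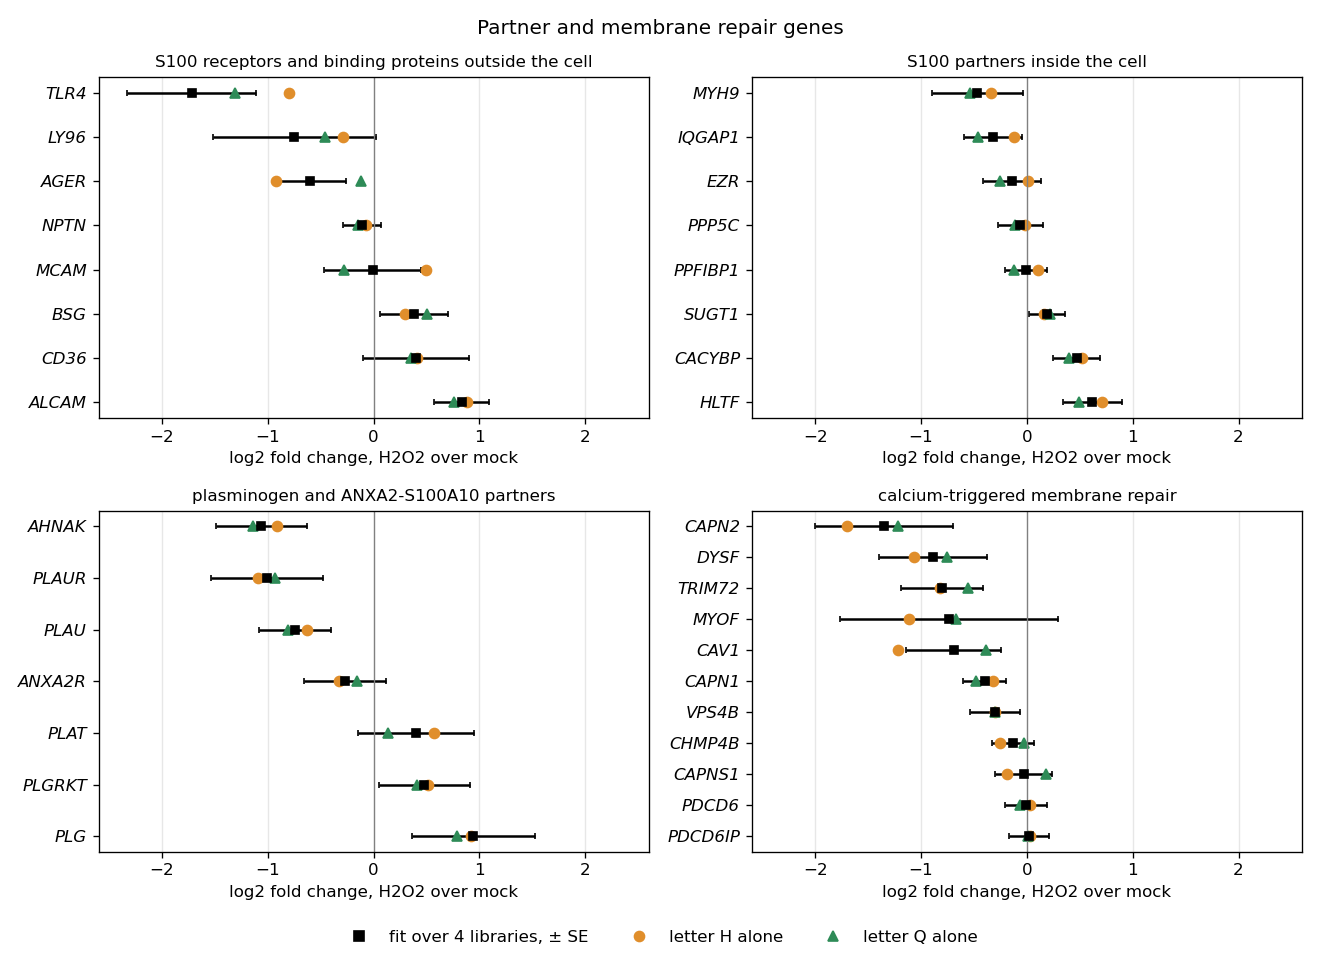
Log2 fold change of H2O2 over mock for genes of 4 lists, from the fit over 4 libraries with its standard error (black squares) and from letter H alone (orange circles) and letter Q alone (green triangles). In the membrane repair panel 10 of 11 squares lie left of 0, and in the plasminogen panel AHNAK at −1.06 and PLG at 0.94 lie at opposite ends.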

How the data were processed

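RNA from 4 Huh7 libraries was taken with a column kit and made into libraries with an Illumina TruSeq RNA kit, per the labels. Per the submitters' processing notes, the software comprised TopHat 1.3.3, Bowtie 0.12.2, Cuffdiff and CASAVA; builds hg19, GRCh37 and mm8 were listed without roles. How reads were counted, on which annotation and whether by strand is not given in the sources used here. Per the file headers, each deposited table held a read count and an FPKM for each of 58146 transcript models. Counts were whole numbers repeated over isoforms, and even with 1 model per gene their totals exceeded the 83462944, 86492977, 78126878 and 88409567 mapped mates (87.4% to 91.7% mapped) that the authors deposited for H2O2 H, H2O2 Q, mock H and mock Q; why was not tested, and counting precision is overstated. FPKM served only for alternatives.

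Each gene took its model with the most reads, RefSeq mRNAs first, with at least 10 reads in at least 2 libraries. Library sizes were TMM-scaled (0.903, 1.06, 0.932 and 1.12 in the same order). edgeR 4.0.16 (R 4.3.3) tested H2O2 over mock by quasi-likelihood, two-sided, with treatment as sole term, residual degrees of freedom 2, prior 3.21, biological coefficient of variation 0.309 and Benjamini-Hochberg adjustment at 5%. Each SE was derived from that test, as the absolute log2 fold change divided by the square root of its F statistic. The fit with treatment beside the letter had fewer residual degrees of freedom. DESeq2 1.42.0 and limma 3.58.1 on log2(FPKM + 1) were alternatives. Fitting was tested on simulated data. Ratios within a letter or a treatment use CPM plus 0.1, which draws rare genes towards 0. The labels do not say that letters pair samples. Counts without genes that passed the filter through 1 treatment or 1 letter alone were added after seeing the data.

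Members and lists were chosen with earlier results of these data known. Every tested member was named, and of other lists the 3 tested genes of largest log2 fold change with mean CPM of at least 1. AHNAK, PLG, PLAUR, AGER, TLR4 and CACYBP were added. Cell type markers and letter calls in the lists described above were named as checks. Of the plasminogen list 1 gene is not reported here. Transcript lengths and overlaps came from GENCODE v29, matched by accession, and promoters and gene order from RefSeq GRCh38.p14. Start and end positions of the members' models were not used here.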

Additional observations from a re-analysis of the deposited data

How the results depend on the processing

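Genes called between H2O2 and mock numbered 0 with TMM or RLE scaling, summed counts, an FPKM filter, RefSeq mRNAs alone or limma, 138 with DESeq2, 9 with no filter on low counts, and 0 to 11 with 1 library left out (11 without mock Q). With the letter as replicate block 42 were called, 0.152% of genes, and 0 members. The lowest edgeR adjusted p-values of members there were 0.0504 for ANXA3 and 0.0684 for S100A14. Deviations of the 2 libraries of a letter correlated at 0.527 over genes, but the labels do not make the letter a pairing. Genes called between letters numbered 2802 with DESeq2, 3594 with no filter and 3 with letter alone; these alternatives were chosen after seeing the data.

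The S100 median was −0.13 with limma and −0.96 to 0.17 with 1 library left out, and the annexin median −0.32 to −0.08. Over 12 alternatives 17 members kept their direction, and 26 of 334 values reversed, in 11 members. S100A2 was −0.013 with RefSeq mRNAs alone and −0.0029 with limma. S100A3 was −0.10 with limma and −0.21 with the replicate block. S100A4 was −0.0025 with the FPKM filter, −0.019 with RefSeq mRNAs alone, −0.12 with limma and −0.14 with the replicate block. With 1 library left out, log2 fold changes ran from −2.36 to 0.75 for ANXA1, −0.89 to 0.70 for ANXA10, −0.40 to 0.027 for ANXA5, −0.30 to 1.33 for ANXA6, −0.48 to 0.40 for ANXA9, −1.87 to 0.21 for S100A16, −0.88 to 0.90 for S100A2, −4.43 to 2.65 for S100A3, −1.03 to 0.61 for S100A4, −1.50 to 0.35 for S100A5 and −2.36 to 0.61 for S100A6; a lone library was then assumed to vary like the other group. The cause was not tested. With 2 libraries per group, a p that misses the threshold does not show that levels were equal.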
